A study of Mus musculus with 8 samples.

Results

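Keratins are the intermediate filament proteins of epithelial cells, and each type of epithelium carries its own keratin pairs. Simple, single-layered epithelia such as the thyroid follicle use Krt8 and Krt18, the basal layer of stratified epithelia uses Krt5 and Krt14, and the hair follicle has a large set of its own. Keratin filaments are anchored at desmosomes, cell junctions in which the cadherins of the desmoglein (Dsg) and desmocollin (Dsc) families are bound through plakoglobin (Jup) and plakophilins (Pkp) to desmoplakin (Dsp). Epiplakin (Eppk1), periplakin (Ppl) and envoplakin (Evpl) are plakins, large linker proteins that bind keratin filaments, and annexin A8 (Anxa8) is a calcium-dependent membrane-binding protein found in stratified epithelia.

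All keratin, desmoglein, desmocollin and plakophilin genes on the array were taken by gene symbol, together with Jup, Dsp, Ppl, Evpl, Eppk1 and Anxa8. This gave 70 genes read by 95 probes, out of 55681 probes in all, and 64 of these probes, from 51 genes, had signal well above background throughout at least 1 of the groups of 4. The thyroids came from female Balb/c mice aged 8 weeks. Exposed mice received 99mTc-pertechnetate to an absorbed thyroid dose of 30 Gy and the RNA was taken 24 h after administration, and control mice received no radionuclide. RNA of the whole thyroid was labelled with Cy3 and hybridised to 1 array per thyroid, with 4 control and 4 exposed arrays on 1 slide. In the sample titles the exposed samples carry the lower numbers on that slide and the controls the higher ones. If these numbers give the position on the slide, position and exposure cannot be told apart.

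Thyroglobulin (Tg), the hormone precursor made by thyroid follicular cells, had a log2 signal of 18.70 to 19.07 on the 8 arrays, and 61 of the 19965 RefSeq genes fell in the exposed thyroids at an adjusted p under 0.05, among them the follicular cell genes Slc5a5 and Dio1. In bulk tissue, fewer cells of a type and less RNA per cell cannot be told apart. Control arrays 1 and 2 carried thymus transcripts that the other 6 arrays had at lower levels. Terminal transferase (Dntt), an enzyme of thymocytes, had a log2 signal of 13.75, 13.31, 7.41 and 7.58 on control arrays 1 to 4 and 7.78, 8.13, 8.14 and 9.13 on exposed arrays 1 to 4. The members that were highest on these 2 arrays, and the members past the threshold, are given with and without them.

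Of the 95 probes, 4 passed the test (limma, Benjamini-Hochberg adjusted p under 0.05 over all probes) and all 4 were higher in the exposed thyroids. They belonged to 3 genes, Eppk1, Anxa8 and Krt73, against 1.22% of all RefSeq genes. Over all probes, 0.781% passed, 0.587% higher and 0.194% lower. No member probe was lower at that threshold. The members, Anxa8 by its own name, were chosen with earlier results of these data known. These shares therefore give no independent support. At an unadjusted p under 0.05 there were 15 of the 95 probes against 12.2% of all, and 11 of the 70 genes against 14.9% of all RefSeq genes, shares near the background. The 11 genes were all higher, against 6.53% of RefSeq genes higher and 8.34% lower. The groups did not overlap for 7 member probes, all higher in the exposed thyroids, against 9.11% of all probes (4.74% higher, 4.37% lower). The median log2 difference, exposed minus control, was 0.15 over the 70 genes and -0.03 over all RefSeq genes.

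Epiplakin was the member with the largest difference. The 2 Eppk1 probes lie at chr15:75931936-75931995 and chr15:75931912-75931971 (mm9, minus strand) and share 36 bases, so they do not measure the gene independently. The first 30 shared bases, shown because both probes read this stretch, are (chr15:75931942-75931971, mm9, minus strand):

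Eppk1 probes, shared stretch: ttacaacttttcgtgtcttcatgtcttttg

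The RefSeq probe of Eppk1 had a log2 signal of 10.90, 10.91, 11.02 and 10.83 in the controls and 13.71, 13.86, 13.70 and 14.66 in the exposed thyroids. Every exposed array was above every control, and the controls lay within 0.19 of each other. The difference was 3.07 ± 0.23 (SE, n = 4 and 4), an 8.40-fold higher signal, with an adjusted p of 0.00317 (limma). Its overlapping probe gave a difference of 2.99 ± 0.24 with an adjusted p of 0.0032. An exact two-sided permutation test of Eppk1 gave p = 0.0286, the smallest that 4 against 4 arrays allow. Any probe whose groups do not overlap gives this p, Ppl among them, so it adds no support beyond the values above.

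Periplakin and envoplakin, which pair with each other in the cornified envelope of stratified epithelia, did not pass. Ppl had a log2 signal of 12.28, 12.56, 12.74 and 12.03 in the controls and 13.12, 12.89, 13.04 and 13.57 in the exposed thyroids. The groups did not overlap, but the difference of 0.75 ± 0.22 had an adjusted p of 0.219 (limma). Evpl had a difference of -0.35 ± 0.25 with an adjusted p of 0.59, and its control and exposed ranges overlapped. Whether the plakins differed from each other in their response was not tested.

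**Figure D1:**
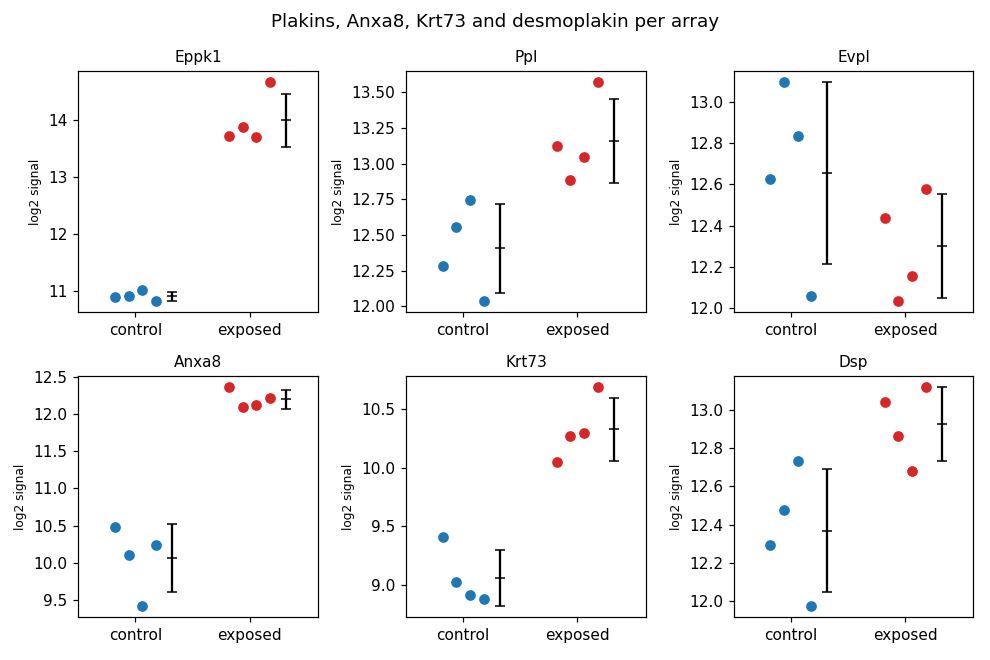
Log2 signal (quantile-normalized) of Eppk1, Ppl, Evpl, Anxa8, Krt73 and Dsp on the 4 control arrays (blue) and 4 exposed arrays (red), each panel with its own axis range and black bars for the mean and SD. The exposed arrays lie above all controls for Eppk1, Ppl, Anxa8 and Krt73, and the groups overlap for Evpl and Dsp.

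Annexin A8 rose as well. The RefSeq probe of highest signal, at chr14:34913661-34913720 (mm9, plus strand), had a log2 signal of 10.48, 10.11, 9.41 and 10.24 in the controls and 12.36, 12.09, 12.11 and 12.21 in the exposed thyroids. The exposed arrays were closer together than the controls, and the lowest of them was above the highest control. The difference was 2.13 ± 0.23 (SE, n = 4 and 4), a 4.38-fold higher signal, with an adjusted p of 0.0115 (limma). It was 0.0505 without control array 2 and 0.0575 without exposed array 1. The second Anxa8 probe, which lies at chr14:34913148-34913207, had 9.30, 8.56, 7.91 and 8.62 in the controls and 10.16, 10.09, 9.93 and 10.03 in the exposed thyroids. Its groups did not overlap either, and its difference of 1.46 ± 0.27 did not pass, with an adjusted p of 0.074. Of the 11 other annexins measured, none passed the test, while 1 was higher and 2 were lower at an unadjusted p under 0.05. Anxa6 had the smallest adjusted p of these, with a difference of -0.74 ± 0.15 and an adjusted p of 0.083.

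Krt73, a type II keratin of the inner root sheath of the hair follicle, was the only keratin past the threshold. Its probe at chr15:101623743-101623802 (mm9, minus strand) had a log2 signal of 9.41, 9.03, 8.92 and 8.88 in the controls and 10.05, 10.27, 10.30 and 10.69 in the exposed thyroids. The lowest exposed array was above the highest control. The difference was 1.27 ± 0.19, a 2.41-fold higher signal, with an adjusted p of 0.0327 (limma), and it passed in only 1 of the 8 fits that left out a single array, the one without control array 1. In the other 7 the adjusted p was up to 0.12. None of the 10 hair follicle markers examined passed the test. The log2 of their summed signal, over the 7 that were well above background in a group, was 11.43 to 12.23 in the controls and 11.02 to 12.08 in the exposed thyroids. This sum was mostly Gata3, a transcription factor of the inner root sheath, with 10.16 to 11.93. The level of a gene relative to its own average, averaged over the same 7, was -0.36 to 0.05 in the controls. In the exposed thyroids it was -0.21 to 0.52, a difference of 0.16 with overlapping ranges. Krtap3-1, a hair shaft protein, was well above background on no array, while another, Krtap6-1, had 5.53 to 6.03 in the controls and 6.18 to 7.49 in the exposed thyroids (difference 1.12 ± 0.33, adjusted p = 0.24). At an unadjusted p under 0.05 Krtap6-1 and Hoxc13, a hair transcription factor, were higher and Gata3 was lower. What part other hair follicle genes had in the Krt73 value was not tested.

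The sequences upstream of the transcription start are shown for Anxa8 and Krt73, the 2 of the 3 rising genes for which the RefSeq table (GRCm38.p6) held an entry. They are the 250 bases before the start, at chr14:34085729-34085978 (plus strand) and chr15:101802361-101802610 (minus strand), with a TATAAA motif in capitals:

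Anxa8: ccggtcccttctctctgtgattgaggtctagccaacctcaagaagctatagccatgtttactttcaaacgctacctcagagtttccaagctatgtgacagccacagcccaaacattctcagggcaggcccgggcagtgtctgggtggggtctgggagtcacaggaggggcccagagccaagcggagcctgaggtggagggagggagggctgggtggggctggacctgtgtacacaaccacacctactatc

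Krt73: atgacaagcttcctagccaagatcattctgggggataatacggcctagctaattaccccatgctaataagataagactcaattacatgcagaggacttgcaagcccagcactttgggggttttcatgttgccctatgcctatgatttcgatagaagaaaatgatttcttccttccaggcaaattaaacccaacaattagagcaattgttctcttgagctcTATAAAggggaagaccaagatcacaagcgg

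The Krt73 motif spans bases 30 to 25 before the start, and Anxa8 had none. In all, 5 motifs were searched on both strands, of which the first was TATAAA. It was in 16 of the 40 member promoters in the table and in 12.4% of all 32851 promoters, and the 16 were all keratin promoters, of 35 in the table. CCAAT was in 15 of the 40 and in 33.8% of all promoters, and GGGCGG in 5 and 32.7%. TGANTCA was in 2 of the 40 (6.75% of all) and the p53 response element core in 4 (7.13%). Neither Anxa8 nor Krt73 had any of these other motifs in the 250 bases. These matches are letters in a window and describe no factor.

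None of the 15 desmosomal plaque and cadherin genes passed the test, and 2 of them, Dsp and Pkp2, were higher at an unadjusted p under 0.05. Desmoplakin, which links keratin to the junction, had a log2 signal of 12.30, 12.47, 12.73 and 11.97 in the controls and 13.04, 12.86, 12.68 and 13.12 in the exposed thyroids. Its difference of 0.56 ± 0.20 had an adjusted p of 0.318 (limma), and the groups overlapped. Pkp2, a plakophilin of many epithelia, had a difference of 0.52 ± 0.19 with an adjusted p of 0.349, Pkp3 of 0.22 ± 0.15 and Pkp4 of 0.36 ± 0.22. Jup, plakoglobin, had a difference of 0.02 ± 0.53. Of the 9 desmosomal cadherins, Dsg2 and Dsc2, the forms of simple epithelia, had differences of 0.21 ± 0.16 and -0.09 ± 0.15. The adult skin forms Dsg1a, Dsg1b and Dsc1 and the hair form Dsg4 were well above background on at most 1 array each by the probe that reads the gene, and Dsg3 likewise. Dsc3 and Dsg1c had differences of -0.66 ± 0.38 and 1.39 ± 1.14. On exposed array 3 Dsg1c had a log2 signal of 11.66, against 6.29 to 9.17 on the other 7 arrays. Exposed array 3 also had the highest Krt222, a keratin whose role is not given here, with 15.17 against 12.58 to 14.08 elsewhere, though the second, dimmer Krt222 probe had 2.92 on that array and its highest value, 8.26, on exposed array 4.

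**Figure D2:**
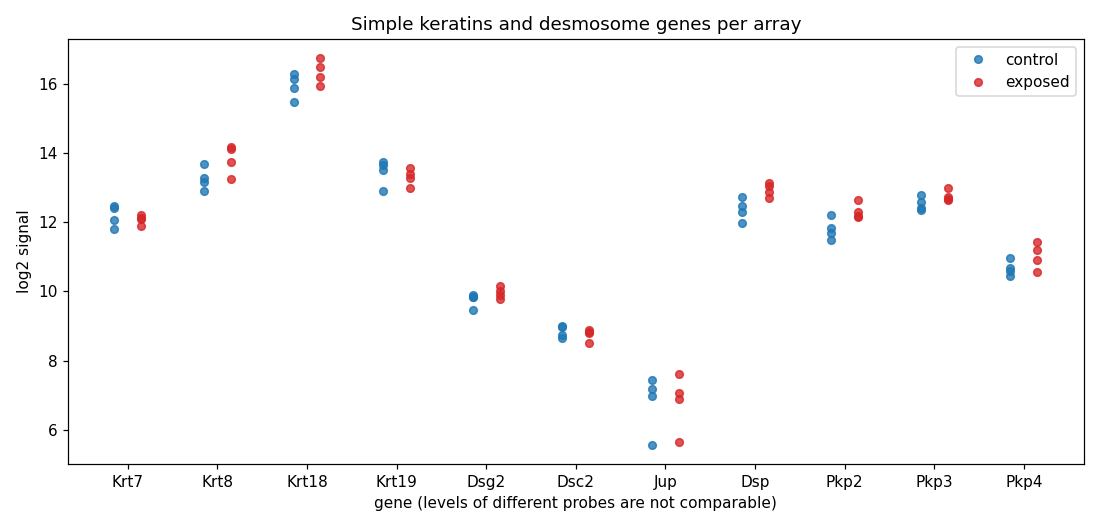
Log2 signal (quantile-normalized) of the simple keratins and the main desmosome genes, one column per gene with 4 control arrays (blue) and 4 exposed arrays (red). The groups overlap for every gene shown.

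None of the 6 keratins of simple epithelia, the kind thyroid follicular cells carry, passed the test or had an unadjusted p under 0.05. Krt18 had a log2 signal of 15.88, 16.15, 16.29 and 15.47 in the controls and 16.20, 16.47, 15.94 and 16.73 in the exposed thyroids, a difference of 0.39 ± 0.24. Krt8 had a difference of 0.57 ± 0.26 with an adjusted p of 0.427, Krt7 of -0.12 ± 0.19 and Krt19 of -0.14 ± 0.23. The controls and exposed thyroids overlapped for each of these 4 genes. Of the 13 measured keratins of differentiating layers, none passed and 1, Krt4, was higher at an unadjusted p under 0.05. Krt4, a keratin of the suprabasal layers of the oesophagus and other internal stratified epithelia, had 7.14, 6.60, 6.53 and 6.54 in the controls and 7.25, 7.11, 7.18 and 7.31 in the exposed thyroids, and the difference of 0.51 ± 0.17 had an adjusted p of 0.298. Krt13, its partner, had a difference of 0.13 ± 0.20, Krt1 of 0.23 ± 0.39 and Krt10 of -0.28 ± 0.20. Among the 15 hair shaft keratins none passed, while 3 were higher at an unadjusted p under 0.05 and none lower. These were Krt33a, Krt40 and Krt84, whose reading probes were well above background on no control array. The second of the 3 Krt85 probes had groups that did not overlap, with a difference of 0.60 ± 0.20 and an adjusted p of 0.298 (this probe was singled out after its values were seen).

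**Figure D3:**
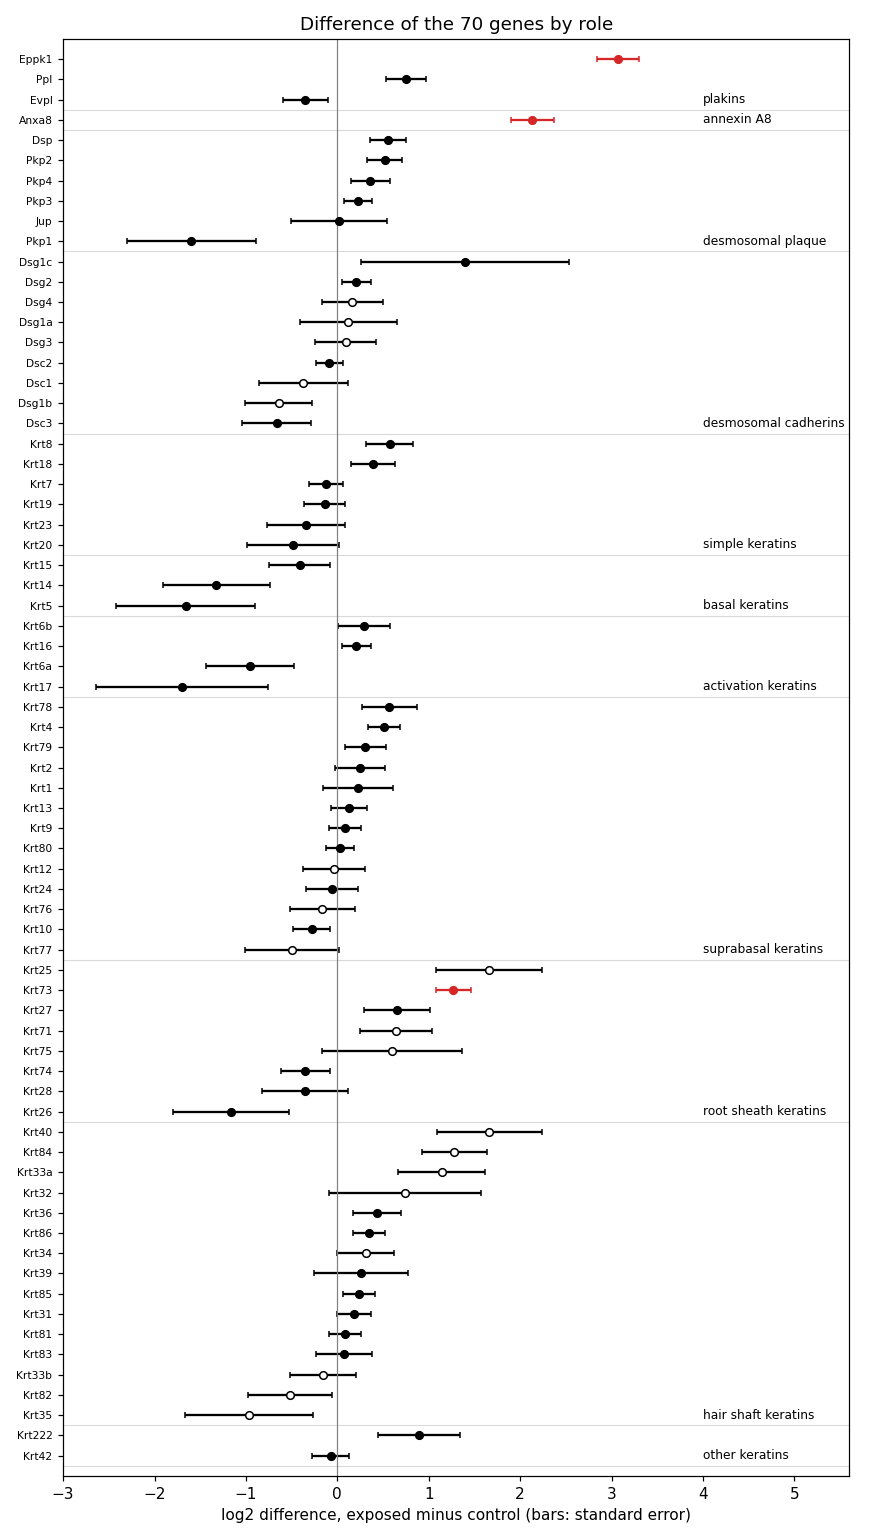
Difference in log2 signal, exposed minus control, of each of the 70 genes with its standard error, ordered by role. Red points passed the test (Eppk1, Anxa8 and Krt73), black points did not, and open points were not well above background on all 4 arrays of either group.

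The basal keratins were uneven among the controls. Krt5, the type II keratin of basal cells, had a log2 signal of 13.48, 13.01, 10.77 and 10.62 on control arrays 1 to 4 and 11.09, 10.42, 9.10 and 10.63 in the exposed thyroids. Control arrays 1 and 2 were high, and the other 6 arrays were between 9.10 and 11.09. The difference of -1.66 ± 0.76 had an adjusted p of 0.433 (limma), and the second Krt5 probe had a difference of -0.25 ± 0.43. That second probe had 8.61 and 7.08 on control arrays 1 and 2 and 6.55 to 7.50 on the other 6 arrays. Krt14, the partner of Krt5, had 10.23, 9.44, 8.14 and 7.81 in the controls and 8.47, 7.50, 6.86 and 7.52 in the exposed thyroids, with a difference of -1.32 ± 0.58 (adjusted p = 0.42). Krt17, a keratin of activated keratinocytes, had 10.64, 9.76, 7.17 and 6.39 in the controls and 7.19, 6.92, 5.84 and 7.21 in the exposed thyroids, with a difference of -1.70 ± 0.94 (adjusted p = 0.504). Pkp1, the plakophilin of stratified epithelia, had 10.26, 9.53, 7.28 and 7.67 in the controls and 7.45, 7.35, 6.06 and 7.51 in the exposed thyroids, with a difference of -1.60 ± 0.71 (adjusted p = 0.421). By the probe that reads each gene, all 4 were highest on control arrays 1 and 2. Krt15, another basal keratin, was not, with a control range of 9.84 to 10.82 and a difference of -0.41 ± 0.34.

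Most thymus markers were highest on the same 2 arrays, 4 of the 6 thymic epithelium markers and 8 of the 9 thymocyte markers. The exceptions were Aire, Cldn3 and Themis, and Aire, a transcription regulator of thymic epithelium, was 5.29 to 5.88 in the controls and 6.25 to 6.69 in the exposed thyroids. Prss16, a serine protease of thymic epithelium, had a log2 signal of 11.57, 12.13, 7.35 and 9.11 in the controls and 7.51, 7.89, 6.08 and 7.37 in the exposed thyroids. Ccl25, a chemokine of thymic epithelium, had 14.07 and 13.55 on control arrays 1 and 2 and 9.13 to 10.26 on the other 6. Rag1, a recombinase gene of thymocytes, had 11.96 and 10.64 on control arrays 1 and 2, 5.45 on exposed array 4 and 2.80 to 2.92 on the other 5. The log2 of the summed signal of the 4 thymocyte markers well above background in a group was 12.29 to 15.60 in the controls and 12.19 to 13.00 in the exposed thyroids, and that of the 5 thymic epithelium markers was 14.37 to 15.51 and 14.24 to 14.87. Outside control arrays 1 and 2 the latter sum was mostly Cldn3, a claudin, with 14.18 to 15.05. The level of a gene relative to its own average, averaged over these 5 markers, was 1.28 and 1.53 on control arrays 1 and 2. On the other 6 arrays it was -0.82 to -0.27. None of either list passed the test, and at an unadjusted p under 0.05 there was 1 higher (Aire) and 1 lower (Prss16). Their part in the Krt5, Krt14, Krt17 and Pkp1 values was not tested. With control arrays 1 and 2 left out, which was chosen after seeing the data, the differences were -0.38 ± 0.55 for Krt5, -0.39 ± 0.44 for Krt14, -0.39 ± 0.46 for Pkp1 and 0.01 ± 0.47 for Krt17. None of the 4 passed in that fit either. Trp63, the transcription factor of basal cells, had 12.68 to 13.31 on all 8 arrays. Over the 51 member genes well above background in a group, 9 had a range among the controls above 2 on the log2 scale, which is 17.6% against 5.34% of the 15697 RefSeq genes so measured. In the exposed thyroids 2 of the 51 did, 3.92% against 4.13%.

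**Figure D4:**
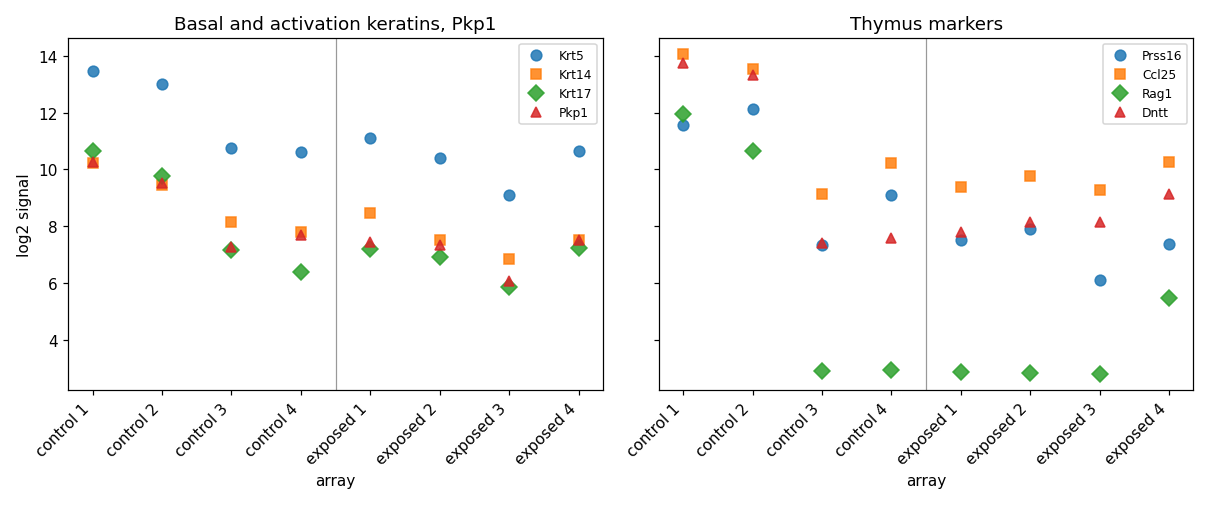
Log2 signal (quantile-normalized) on each of the 8 arrays of Krt5, Krt14, Krt17 and Pkp1 (left) and of the thymus markers Prss16, Ccl25, Rag1 and Dntt (right), with the line dividing control from exposed arrays. Control arrays 1 and 2 are highest for all 8 genes by the probe that reads each gene.

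Eppk1, Anxa8 and Krt73 were higher in the exposed thyroids with groups that did not overlap, which by itself places control arrays 1 and 2 below every exposed array. The part of the thymus transcripts in these values was not tested. Without control arrays 1 and 2 the differences were 3.06 ± 0.32 for Eppk1, 2.37 ± 0.26 for Anxa8 and 1.43 ± 0.22 for Krt73, against 3.07, 2.13 and 1.27 with all arrays. The adjusted p values were then 0.0525, 0.0566 and 0.11 with 2 controls against 4 exposed thyroids. The overlapping Eppk1 probe stayed past the threshold in that fit, with an adjusted p of 0.0343.

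Some dim genes had high differences that rest on arrays near background. Krt25, a keratin of the inner root sheath, was well above background on no control array and on 3 exposed arrays. With each control array set no lower than its lowest signal well above background, the exposed signal was 1.33-fold higher. Krt40, a hair shaft keratin, was likewise above background on no control and 3 exposed arrays by the probe that reads it. On the same terms its exposed signal was 1.05-fold higher. But its second probe had a difference of -0.64 ± 0.37 and was above background on 1 control array and no exposed array. Their adjusted p values were 0.311 each. These 2 were named after their values were seen.

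The rest of the stratified epithelial programme was read from 6 lists of other genes, 92 of whose 96 genes were measured, with 0.917% of all RefSeq genes higher and 0.306% lower as background. Of these 92, 3 rose and none fell. With normexp, no background correction, the deposited values, the filter on dim probes, a variance trend or array weights, 2 or 3 of them fell, Cdh16 and Anxa6 in each of these and Cldn1 without background correction and on the deposited values. Calml3, a calmodulin-like protein of stratified epithelia, had a log2 signal of 12.36, 13.06, 13.12 and 12.87 in the controls and 15.81, 15.36, 15.35 and 15.97 in the exposed thyroids, a difference of 2.77 ± 0.23 with an adjusted p of 0.00368. Perp, a desmosomal membrane protein and a target of p53, had a difference of 2.00 ± 0.22 with an adjusted p of 0.0116. Tgm1, the transglutaminase of the cornified envelope, had a difference of 2.02 ± 0.31 with an adjusted p of 0.0363. Without exposed array 1, Calml3 alone of these 92 genes passed, with an adjusted p of 0.024, and Tgm1 passed in 1 of the 8 fits that left out an array.

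Of the 25 measured cornified envelope genes, 2 rose, and of the 14 regulators of stratified epithelium, 1 did. Nothing passed among the 22 adherens and tight junction genes, the 9 hemidesmosome genes or the 11 other intermediate filament genes, where 4 were higher and 4 lower in all at an unadjusted p under 0.05. Itgb4, the integrin of hemidesmosomes, had a difference of 0.89 ± 0.19 with an adjusted p of 0.102. Cldn1, a tight junction claudin, had the smallest adjusted p of these lists, 0.0859, with 7.20, 6.05, 7.53 and 5.47 in the controls and 4.59, 3.81, 2.89 and 4.14 in the exposed thyroids. The groups did not overlap, and no exposed array was well above background. With each exposed array set no lower than its lowest signal well above background, the exposed signal was 3.89-fold lower. Without background correction the log2 difference of Cldn1 was smaller, -1.18. Cdh16, a cadherin of thyroid and kidney, had -1.27 ± 0.26 with an adjusted p of 0.0931. Grhl3, a transcription factor of surface epithelium, had 1.49 ± 0.34 with an adjusted p of 0.127.

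Markers of squamous epithelium gave a single call, Calml3, which also stands in the cornified list, among 10 genes. The log2 of the summed signal of the 9 markers well above background in a group was 14.12 to 14.29 in the controls and 15.73 to 16.23 in the exposed thyroids. Without Calml3 it was 13.27 to 13.62 and 13.44 to 13.77, so that Calml3 carried nearly all of the difference in summed signal. That remaining sum was mostly Trp63, with 12.68 to 13.31 against at most 10.81 for any other marker left. It says little about the dimmer markers. The level of a gene relative to its own average, averaged over the 9 markers, was -0.35 to -0.02 in the controls. In the exposed thyroids it was 0.07 to 0.39, a difference of 0.42 with Calml3 included. The part of the other markers in it was not tested. Of the 10 markers, 8 had a positive difference, Calml3 among them, and 2 a negative one, Sprr3 and Krtdap. Sprr3, a cornified envelope protein of the oesophagus, was well above background on 1 control array and no exposed array. Loricrin (Lor), another, had a difference of 0.21 ± 0.30, and Krtdap, a secreted keratinocyte protein, of -0.22 ± 0.34. The part of squamous epithelium in the Eppk1, Anxa8 and Krt73 values was not tested.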

How the data were processed

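Gene expression was measured in 8 whole mouse thyroids with single-colour Agilent 60-mer arrays. The authors deposited scanner intensity values per spot, made with Feature Extraction 10.7.3.1, whose processed signal is background-subtracted. They also deposited a log2 table, which matched the quantile-normalized log2 median signal within 0.0378, and its column medians were 7.51 to 7.52. Other deposited columns, which hold flags and probe annotations, were used as given.

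The log2 of the processed signal was quantile-normalized over 59305 spots, the spots of a probe were averaged, and the groups were compared with limma 3.58.1 in R 4.3.3 (linear model with empirical Bayes, Benjamini-Hochberg adjustment over 55681 probes, threshold 0.05). A gene was read by its brightest RefSeq probe, or by its brightest probe where it had none. Named in full were genes past the threshold, all desmosome genes, plakins and Anxa8, the main keratins of each epithelium, and members whose groups did not overlap. Between 60.5% and 77.3% of spots per array were well above background, and precision is set by how many arrays there are. The replicates' spread may in part be technical. Probe positions are mm9 as the files give them, and whether a probe lies in an exon or untranslated region was not analysed here. The groups share no replicate numbers in the labels. The script was tested on simulated data. The members and the other gene lists were chosen with earlier results of these data known. Alternatives were other scalings and background corrections, the deposited table, a filter on dim probes, other variance models, the methods' t-test, spots marked as outliers left out and each array left out.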

Additional observations from a re-analysis of the deposited data

Results flagged for a closer look

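Among the 64 groups of 4 arrays of the named genes, 7 held an array that stood apart from the other 3 by Dixon's test, where chance gives about 1 in 20, or 3.2. Pkp1 had a log2 signal of 6.06 on exposed array 3 against 7.35 to 7.51 on the other exposed arrays. Krt10 had 8.74 on exposed array 3 against 9.25 to 9.28, and 8.99 on control array 1 against 9.50 to 9.60. Krt4 had 7.14 on control array 1 against 6.53 to 6.60 on the other controls. Dsg2 had 9.45 on control array 4 against 9.82 to 9.90. Dsg1a had 5.36 on exposed array 2 against 2.99 to 3.17, and Dsg4 had 3.79 on control array 1 against 2.90 to 2.95. The last pair are dim genes, whose reading probes were well above background on at most 1 array.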

How the results depend on the processing

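Of the alternatives tried, none reversed Eppk1, Anxa8 or Krt73. The 4 member probes became 1 without control arrays 1 and 2 (added after seeing the data) and 13 by the methods' t-test without adjustment. Leaving out 1 array gave 2 to 5, with 2 without control array 2 and 2 without exposed array 1. Counts over all probes were 435 at first, 856 with normexp, 962 without background correction, 955 on the deposited values, 733 with the filter on dim probes, 739 with a variance trend, 959 with array weights, 289 by the methods' t-test after Benjamini-Hochberg, 6962 without adjustment and 89 without control arrays 1 and 2, and 100 to 481 when 1 array was left out. Scaling to the 75th percentile moved the median difference of all probes to 0.16, and 84.7% of calls were then higher against 75.2%, while array weights gave 60.9%. The other pathway genes gave 5 calls (3 higher, 2 lower) with normexp and with the filter, 6 (3 higher, 3 lower) without background correction and on the deposited values, 6 (4 higher, 2 lower) with a variance trend and with array weights, 1 without control arrays 1 and 2, and 1 to 3 with 1 array left out. Member probes whose groups did not overlap numbered 16 under the 75th percentile scaling and 16 without control arrays 1 and 2, and 8 to 16 with 1 array left out. The share over all probes was not computed for these settings. Groups of fewer arrays are also apart more often by chance, so these counts are not a result about the members.

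Anxa8 lost its call without control arrays 1 and 2 (2.37) and on its second probe (1.46), and ranged from 1.92 to 2.27 with 1 array left out. It also lost the call without control array 2 alone and without exposed array 1. Krt73 lost it under the methods' t-test (1.27) and without control arrays 1 and 2 (1.43), and ranged from 1.15 to 1.39 with 1 array left out. Of those fits, Krt73 passed only in the one without control array 1. Eppk1 lost it without control arrays 1 and 2 (3.06). Over the role groups, the mean level difference moved for the activation keratins without control arrays 1 and 2 (0.12, from -0.54), that of the basal keratins was -0.37 there, from -1.13, and under the 75th percentile scaling for the keratins of differentiating layers (0.36) and of the hair shaft (0.42).

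Under the 75th percentile scaling, Krt84 (1.88, limma adjusted p = 0.0133) and the second Dsc3 probe (1.11, adjusted p = 0.0468) passed too. Signs turned for genes that, by the probe that reads them, passed in no setting. Dsc1 was 0.19 under the 75th percentile scaling, 0.053 with normexp, 0.069 without background correction and 0.069 on the deposited values. Dsg1b was 0.045 with normexp, 0.17 without background correction and 0.17 on the deposited values. Dsg3 was -0.15, -0.13 and -0.13 under those 3, -0.28 without control arrays 1 and 2, -1.47 on another probe and -0.13 to 0.28 with 1 array left out. Dsg4 was -0.15, -0.19 and -0.19, -0.34 on another probe and -0.096 to 0.38 with 1 array left out. Jup was -0.012, -0.0028 and -0.0027, -0.087 with array weights, -0.50 without control arrays 1 and 2 and -0.39 to 0.40 with 1 array left out. Dsg1a was -0.073 without control arrays 1 and 2 and -0.45 to 0.34 with 1 array left out, and Krt1 was -0.078 to 0.45. Dsc3 was 0.68 and Krt13 -0.36 on another probe. Without control arrays 1 and 2, Krt17 was 0.0079 and Krt19 0.040. The cause of these changes was not tested. No paired analysis was possible because the labels of the exposed samples carry no replicate numbers.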
